A study of Mus musculus with 24 samples.

Results

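Libraries of P815, a mouse mastocytoma (malignant mast cell) line, carry the numbers 1, 2 or 3 within each of 8 groups. The 8 libraries whose name ends in 2 (series 2) were set against the 8 whose name ends in 3 (series 3), 1 of each per group, which is 16 of the 24 libraries. The groups were hairpin cells with β-estradiol (SH_E2) and without it (SH), cells given the estrogen receptor inhibitor ICI-182780 with β-estradiol (ICI_E2) or alone (ICI), cells given tamoxifen with β-estradiol (Tamo_E2) or alone (Tamo), and cells with the negative control vector with β-estradiol (NC_E2) and without it (NC). The hairpin is a short RNA directed at Esr1, the gene of estrogen receptor alpha, delivered from a vector. The labels give 24 h for every group but SH and NC, for which no time is stated, and they give no dose. No vehicle-only group is labelled, and the inhibitor groups are not labelled as carrying a vector. All groups grew in RPMI-1640 medium with 10% fetal bovine serum. The labels do not say what the library number marks, nor whether libraries of a group came from separate cultures. A p-value here thus reflects variation among the 16 libraries as they are, which may be technical.

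Mast cells are tissue-resident immune cells that store proteases and histamine in granules and, when stimulated, transcribe cytokine and chemokine genes within hours. Immediate early transcription factors such as FOS and EGR1 act upstream of many of those genes. Type I interferon signalling through the ISGF3 complex turns on antiviral genes of the IFIT, MX and guanylate-binding protein families, and the metallothioneins, which bind zinc and copper, are switched on by the metal sensor MTF1.

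The 12 defining mast cell markers summed to between 796 and 1080 FPKM in series 2 (median 848) and between 786 and 1050 FPKM in series 3 (median 814). FPKM are fragments scaled by gene length and by library depth. All 7 epithelial, all 7 neutrophil and all 7 endothelial markers stayed under 1 FPKM in every one of the 16 libraries. Megakaryocyte, erythroid, fibroblast, T cell and B cell sets each had members above it. Median sums in series 2 and series 3 were 22.3 and 21.9 FPKM for megakaryocyte, 16.9 and 16 FPKM for erythroid and 9.82 and 13.4 FPKM for fibroblast markers. Of tested markers, 1 of 4 megakaryocyte and 1 of 1 fibroblast were called lower in series 2, against 5.36% of all genes. Esr1, the hairpin's target, lay at 0.181 FPKM in SH_E2 and 0.227 FPKM in SH of series 2, against 0.319 FPKM in NC_E2 and 0.435 FPKM in NC of the same series. In series 3 it lay at 0.210 FPKM in SH_E2 and 0.260 FPKM in SH, against 0.234 FPKM in NC_E2 and 0.187 FPKM in NC. The hairpin libraries were thus below the vector libraries in series 2, while in series 3 SH_E2 lay between the vector libraries and SH above both, at levels too low for the gene to be tested. Totals ran from 44.7 to 59.4 M estimated counts in series 2 and from 51.4 to 68.8 M in series 3, and were higher in series 2 in 1 of 8 pairs (exact sign-flip test, two-sided, p = 0.0234, 0.0703 after adjustment over 6 library measures). The other 5 library measures did not pass after adjustment either. Among them, the share of counts from small nuclear, nucleolar and related RNAs gave the same p and adjusted p by that test. It was higher in series 2 in 7 of 8 pairs (medians 0.0146% in series 2 and 0.0130% in series 3). The part of depth or of this share in the results was not tested. In bulk RNA, fewer cells of a kind and less RNA per cell cannot be told apart.

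Of 12183 genes tested, 1440 passed an adjusted p of 0.05 between the series (edgeR quasi-likelihood with group as a factor, Benjamini-Hochberg), which is 11.8% of all genes. Series 2 was higher for 787 of them (6.46%) and lower for 653 (5.36%). These shares of all genes are the background for the list counts below. The differences were small in the main: 1213 of the 1440 changed by less than 1.5-fold, while 52 were at least 2-fold higher and 8 at least 2-fold lower in series 2. The median log2 fold change over all tested genes, written throughout as series 2 over series 3, was -0.006. All 8 pairs had the same sign for 1001 of the called genes, against 1373 of all tested genes (11.3%). In 166 called genes the 8 series 2 libraries and the 8 series 3 libraries did not overlap in FPKM, a pattern that 1.43% of all tested genes showed. A total of 458 genes, 276 higher and 182 lower, kept their call whichever of the 8 pairs was left out, and the examples below are from these unless stated. The number called fell to 501 without the NC pair, 563 without the ICI pair, 625 without the NC_E2 pair, 741 without the Tamo_E2 pair and 897 without the ICI_E2 pair. It was 1244 without the SH pair and 1279 without the Tamo pair, and rose to 2016 without the SH_E2 pair. Across genes, the log2 difference of the SH_E2 pair had a correlation of 0.028 with the mean of the other 7 pairs. That correlation was 0.158 for SH and 0.219 to 0.362 for the others.

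**Figure D1:**
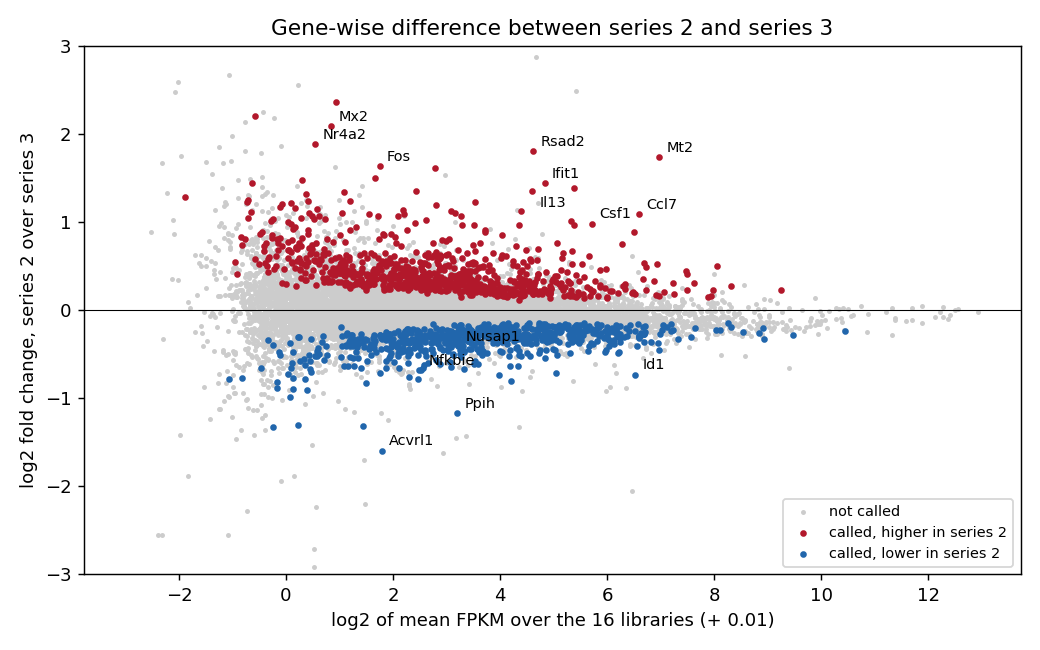
Each point is 1 of the tested genes, with the log2 of its mean FPKM over the 16 libraries on the x axis and its log2 fold change, series 2 over series 3, on the y axis; red genes were called higher and blue genes lower in series 2. 8 genes beyond 3 on the y axis are not drawn, and most called genes lie close to 0, while Mx2, Nr4a2, Rsad2 and Mt2 stand above and Acvrl1 and Ppih below.

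Antiviral interferon-response genes were higher in series 2. Of 35 tested members of the interferon list, 18 rose (against 6.46% of all genes) and 3 fell, and the list's median was 0.44 against -0.006 for all genes. Without both tamoxifen groups 10 members rose. The promoters of Rsad2 and Ifit1, among the largest rises of all genes, are shown because both carry GAAA, any 2 bases and GAAA in a row, the core of the interferon-stimulated response element to which ISGF3 binds. Windows are from RefSeq on GRCm38.p6, run from 250 bases before to 50 after the annotated start, and have matches on either strand in capitals.
Rsad2, chr12:26456403-26456702, minus strand: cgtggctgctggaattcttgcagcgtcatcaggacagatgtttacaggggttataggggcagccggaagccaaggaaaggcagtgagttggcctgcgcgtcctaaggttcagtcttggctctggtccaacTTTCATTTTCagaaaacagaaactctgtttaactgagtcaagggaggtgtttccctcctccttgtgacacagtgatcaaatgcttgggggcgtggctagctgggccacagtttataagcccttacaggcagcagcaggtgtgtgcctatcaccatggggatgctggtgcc
Ifit1, chr19:34640639-34640938, plus strand: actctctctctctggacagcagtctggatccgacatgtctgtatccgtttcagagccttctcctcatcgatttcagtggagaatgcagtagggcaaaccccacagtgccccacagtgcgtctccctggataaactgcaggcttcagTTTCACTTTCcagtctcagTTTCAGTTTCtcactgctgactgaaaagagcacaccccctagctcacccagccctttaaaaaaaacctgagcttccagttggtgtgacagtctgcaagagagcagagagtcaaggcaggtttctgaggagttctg

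The motif was searched on both strands in the first window listed for each of 27018 genes, 3.49% of which hold it. Among tested genes with a window, 2.93% (241 of 8238) held it, and among interferon list members 16 of 29 did. Of the 19 called members with a window, 10 held it, a share no higher than in the list. Those 10 include Bst2, which fell. A match describes the letters only and says nothing of binding in these cells.

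Rsad2 encodes viperin, an enzyme that blocks viral RNA synthesis. It ranged from 14.2 to 60.8 FPKM in series 2 (median 41.5) and from 7.93 to 14.7 FPKM in series 3 (median 9.97). The series overlapped in a single place, where SH_E2 of series 2 lay just under Tamo_E2 of series 3. Its log2 fold change was 1.80 ± 0.20 (standard error; adjusted p = 0.00128), and it was higher in series 2 in 8 of 8 pairs. Ifit1, which binds viral RNA ends, ranged from 30.4 to 51.2 FPKM in series 2 (median 42.5) and from 9.88 to 20.8 FPKM in series 3 (median 14.7). The series did not overlap, and the log2 fold change was 1.44 ± 0.16 (adjusted p = 0.00142). Mx2, a dynamin-like GTPase, ranged from 1.17 to 3.91 FPKM in series 2 (median 3.21) and from 0.436 to 0.817 FPKM in series 3 (median 0.657), again without overlap. The log2 fold change of Mx2 was 2.08 ± 0.27 (adjusted p = 0.00257). Its pair differences were 0.53 to 1.04 log2 CPM in the hairpin pairs and 2.16 to 2.89 in the others. That dependence on the hairpin was not called (edgeR interaction -1.705, adjusted p = 0.0605). Ifit3 rose by 1.24 ± 0.24 on the log2 scale (adjusted p = 0.0125); it has a near-identical neighbour, Ifit3b, so reads could be shared between them.

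The 3 members that fell were named after their values were seen. Bst2, a tether of budding virus, fell by 0.47 on the log2 scale (adjusted p = 0.0104). It kept its call whichever pair was left out. Ifi35 fell by 0.28 (adjusted p = 0.0438) and Irf9, the DNA-binding subunit of ISGF3, by 0.21 (adjusted p = 0.0457). The call of Ifi35 was lost without any 1 of 7 pairs (adjusted p up to 0.113), as was that of Irf9 (up to 0.112). Both kept it only without SH_E2. The median of the interferon list was above 0 in all 8 pairs, lowest in SH (0.14) and SH_E2 (0.21) and highest in Tamo (0.82). Antigen presentation genes were lower more often than higher: 6 of 21 tested MHC class I and immunoproteasome genes fell, 2 rose, and the median was -0.17. Falls numbered 1 without the ICI, Tamo_E2 or NC pair and 3 without the NC_E2 pair, and both rises were lost without the ICI_E2, ICI, Tamo_E2, NC_E2 or NC pair. H2-Q6, a class Ib gene whose close paralogs can share its reads, ranged from 7.001 to 9.29 FPKM in series 2 (median 7.85) and from 9.43 to 12.9 FPKM in series 3 (median 11.01), without overlap (log2 fold change -0.49 ± 0.07, adjusted p = 0.00523).

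**Figure D2:**
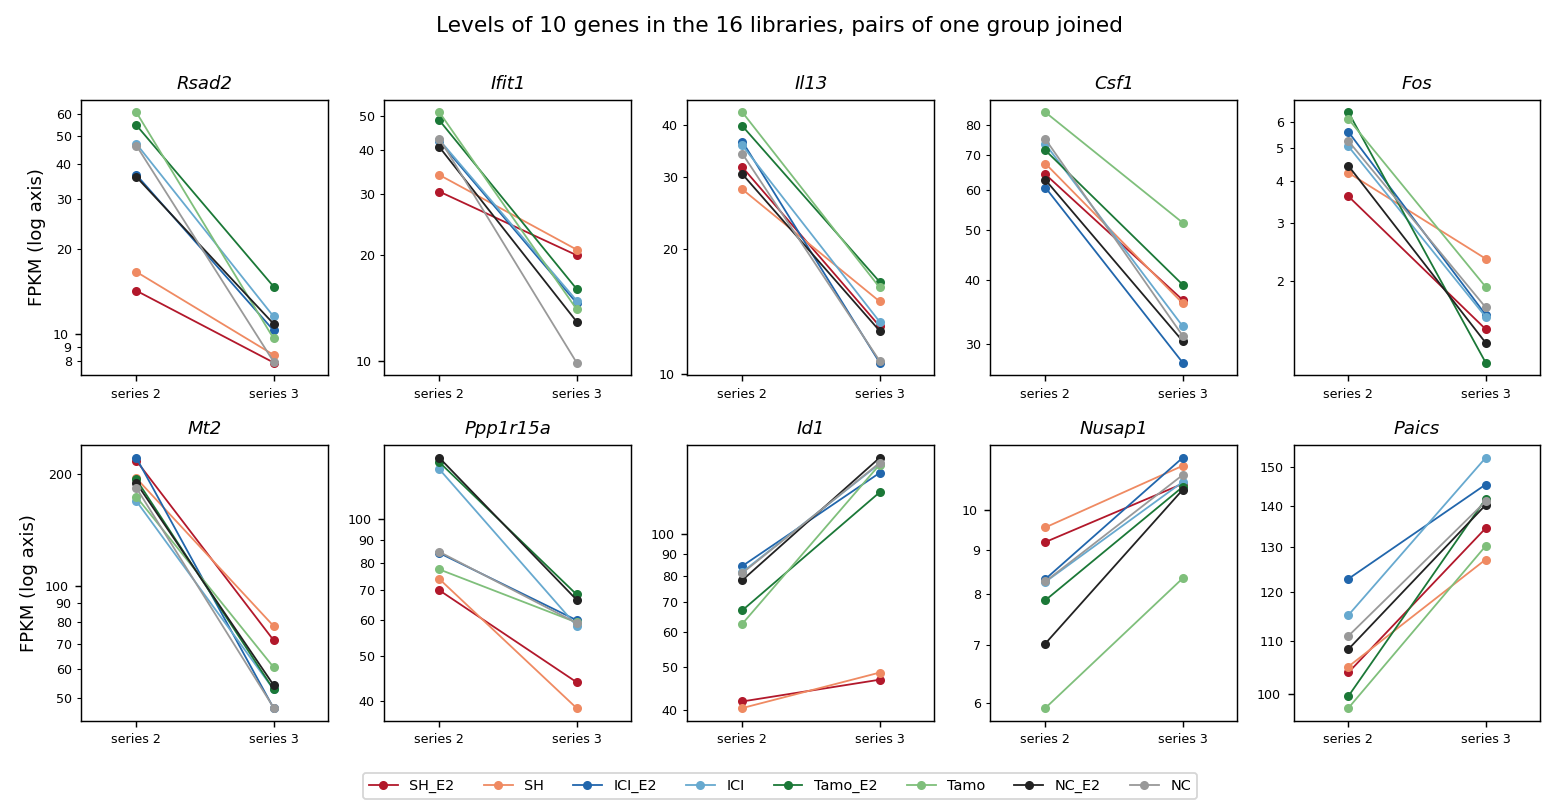
Each panel shows 1 gene in the 16 libraries, with FPKM on a log axis, series 2 on the left and series 3 on the right, and a line joining the libraries of a group. Every line falls from left to right for Rsad2, Ifit1, Il13, Csf1, Fos, Mt2 and Ppp1r15a and rises for Id1, Nusap1 and Paics, while the hairpin groups lie below the others for Id1 in both series and for Rsad2 in series 2.

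Cytokine and chemokine genes were the list with the highest share of rises. Of 19 tested, 13 rose and 1 fell, with a median of 0.54, and 11 of the 13 rises and the 1 fall were kept whichever pair was left out. Il13 (GRCm38 chr11:53631324-53634702, minus strand), a type 2 cytokine that drives mucus production and IgE responses, ranged from 27.9 to 42.9 FPKM in series 2 (median 34.9) and from 10.7 to 16.7 FPKM in series 3 (median 13.2). No library of series 3 reached the lowest of series 2, and the log2 fold change was 1.36 ± 0.09 (adjusted p = 0.000121). Csf1, the growth factor of macrophages, ranged from 60.5 to 84.9 FPKM in series 2 (median 69.5) and from 27.6 to 51.7 FPKM in series 3 (median 34.3). It rose by 0.98 ± 0.07 (adjusted p = 0.000121), without overlap. Ccl7, a monocyte attractant, ranged from 95.5 to 178 FPKM in series 2 (median 124) and from 43.0 to 92.4 FPKM in series 3 (median 54.1). It too did not overlap (1.09 ± 0.09, adjusted p = 0.000405).

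Ccl4, a chemokine that attracts macrophages and T cells, ranged from 21.2 to 79.0 FPKM in series 2 (median 67.7) and from 7.14 to 35.1 FPKM in series 3 (median 27.7). Its series overlapped through the hairpin libraries, which were the lowest in both: SH had 21.2 FPKM in series 2, against 7.14 FPKM in series 3. Within every pair Ccl4 was higher in series 2 (1.38 ± 0.11, adjusted p = 0.000247). Ccl3 rose by 1.23 ± 0.23 (adjusted p = 0.0123). Cxcl10, the chemokine that interferons induce to attract T cells, ranged from 7.003 to 16.3 FPKM in series 2 (median 8.65) and from 1.39 to 7.92 FPKM in series 3 (median 2.45), with a log2 fold change of 1.62 ± 0.16 (adjusted p = 0.000718). The single fall was Tgfb1, a cytokine that restrains immune cells, which was added after its values were seen. It ranged from 61.5 to 75.9 FPKM in series 2 and from 76.4 to 94.2 FPKM in series 3, without overlap (-0.36 ± 0.06, adjusted p = 0.00909). Ptgs2, the inducible cyclooxygenase that makes prostaglandin precursors, had a median of 8.56 FPKM in series 2 and 4.10 FPKM in series 3 (1.02 ± 0.09, adjusted p = 0.000524). Among markers of other cells, the 9 macrophage markers, of which only Lyz2 passed 1 FPKM in any library, summed to 4.93 to 13.6 FPKM in series 2 (median 5.94) and 3.91 to 11.1 FPKM in series 3 (median 4.53). Lyz2, the 1 of them tested, was called higher in series 2 (log2 fold change 0.385, above 0 in 8 of 8 pairs). Whether that call holds without single pairs is not stated here. The 6 basophil markers summed to 231 to 363 FPKM in series 2 (median 280) and 195 to 250 FPKM in series 3 (median 214), but that sum holds Csf1 itself and Gata2, and of the 4 tested only Csf1 was called, with 2 above 0 and 2 below. The part of other cells in the result was not tested.

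Immediate early genes, which are transcribed within minutes of a stimulus without new protein, were higher in series 2 as well. Of 28 tested, 12 rose, with a median of 0.35 and 19 members above 0. None fell by edgeR, limma or DESeq2, and 4 were lower at an unadjusted p under 0.05. Fos, a subunit of the AP-1 transcription factor, ranged from 3.60 to 6.41 FPKM in series 2 (median 5.17) and from 1.15 to 2.34 FPKM in series 3 (median 1.58). The series did not overlap (1.64 ± 0.15, adjusted p = 0.000555). Nr4a2, an orphan nuclear receptor, ranged from 1.55 to 3.40 FPKM in series 2 (median 2.24) and from 0.389 to 1.11 FPKM in series 3 (median 0.489), also without overlap (1.88 ± 0.25, adjusted p = 0.00324). Atf3, a stress-induced repressor, had a median of 29.8 FPKM in series 2 and 14.5 FPKM in series 3 and rose in 8 of 8 pairs (0.97 ± 0.08, adjusted p = 0.000249). Dusp1, a phosphatase that switches off MAP kinases, rose by 0.52 ± 0.08 (adjusted p = 0.00602). Jun, the partner of FOS, was not called: its log2 fold change was 0.19 (adjusted p = 0.117), with medians of 34.4 FPKM in series 2 and 29.7 FPKM in series 3. Across pairs the list's median was highest in SH (0.62) and SH_E2 (0.50). Over the 6 groups without a hairpin it was 0.16, with 13 members higher and 4 lower.

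Of 17 tested genes of the NF-kB system, 4 rose and 2 fell, which is 35.3% called against 11.8% of all genes. The list's median was 0.15. Nfkbiz, a nuclear co-activator that NF-kB induces, ranged from 6.66 to 17.0 FPKM in series 2 (median 12.4) and from 3.48 to 7.07 FPKM in series 3 (median 5.64), and rose by 1.13 ± 0.08 (adjusted p = 0.000121). Nfkbie, a cytoplasmic inhibitor of NF-kB, ranged from 3.38 to 5.50 FPKM in series 2 (median 4.63) and from 5.87 to 9.02 FPKM in series 3 (median 6.78). It fell by 0.68 on the log2 scale without overlap (adjusted p = 0.000555). Both kept their calls whichever pair was left out, while the rises in the list numbered 1 without the ICI_E2, ICI, Tamo_E2 or NC pair and 2 without the NC_E2 pair.

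Metal-responsive genes gave the lowest p of any named gene. Of 6 tested, 3 rose and 1 fell, with a median of 0.32 and the same 3 rises whichever pair was left out. The promoter of Mt2 is shown because TGCNCNC, a loose form of the metal response element that MTF1 binds, recurs in it. The pattern is there 6 times on the 2 strands together, and not every match need fit the element itself. That short motif is in 50.4% of all windows, in 59.7% of those of tested genes (4921 of 8238) and in all 6 of the list's tested genes.
Mt2, chr8:94172368-94172667, plus strand: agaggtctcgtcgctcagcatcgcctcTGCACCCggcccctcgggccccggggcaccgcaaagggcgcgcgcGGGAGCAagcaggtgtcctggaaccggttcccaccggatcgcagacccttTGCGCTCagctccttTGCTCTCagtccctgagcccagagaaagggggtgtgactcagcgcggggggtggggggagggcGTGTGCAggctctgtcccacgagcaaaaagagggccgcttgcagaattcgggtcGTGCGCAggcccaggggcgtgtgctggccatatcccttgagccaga

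Mt2 ranged from 169 to 221 FPKM in series 2 (median 191) and from 47.0 to 78.1 FPKM in series 3 (median 53.5). The series lay far apart, and the log2 fold change was 1.74 ± 0.09 (adjusted p = 6.4e-05). The neighbouring Mt1 (chr8:94179082-94180327, where Mt2 is at chr8:94172664-94173568, GRCm38, both plus strand) ranged from 131 to 166 FPKM in series 2 (median 140) and from 88.6 to 114 FPKM in series 3 (median 98.03), and changed less (0.53 ± 0.08, adjusted p = 0.00467). The Mt2 start given here differs from the RefSeq start on which its promoter window was set. Mt1 also did not overlap between the series. Slc30a1, which exports zinc across the plasma membrane, ranged from 4.41 to 6.01 FPKM in series 2 (median 5.003) and from 2.73 to 3.88 FPKM in series 3 (median 2.92), without overlap (0.76 ± 0.06, adjusted p = 0.0004). The zinc importer Slc39a10 fell by 0.37 (adjusted p = 0.0219), a call lost without the SH, ICI_E2, Tamo_E2, NC_E2 or NC pair (adjusted p up to 0.0616).

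Genes of the unfolded protein response, by which the endoplasmic reticulum adjusts its folding capacity, rose in 9 of 30 cases, around a median of 0.08. That is 30%, against 6.46% of all genes. None fell by edgeR, limma or DESeq2, and 1 was lower at an unadjusted p under 0.05. Ppp1r15a, the regulatory subunit that reverses the block on translation during stress, ranged from 69.8 to 136 FPKM in series 2 (median 84.4) and from 38.6 to 68.3 FPKM in series 3 (median 59.3), without overlap (0.75 ± 0.09, adjusted p = 0.00231). Syvn1, the ubiquitin ligase of the degradation pathway, rose by 0.58 ± 0.11 (adjusted p = 0.0124) and Dnajb9, a chaperone cofactor, by 0.53 ± 0.11 (adjusted p = 0.0142). Hspa5, the main chaperone BiP, had medians of 359 FPKM in series 2 and 286 FPKM in series 3 (0.27 ± 0.06, adjusted p = 0.0199), and lost its call without the ICI, NC_E2 or NC pair (adjusted p up to 0.0631). The number of rises in the list was 3 without the NC or the NC_E2 pair, 4 without the ICI pair and 5 without the Tamo_E2 pair. In the amino acid stress list, 7 of 38 rose and 2 fell, which is 23.7% called against 11.8% of all genes. Rises numbered 3 without the ICI, NC_E2 or NC pair and 4 without the SH or Tamo_E2 pair. Atf5, a transcription factor of that response, rose by 0.67 ± 0.12 (adjusted p = 0.0114) while Chac1, which degrades glutathione and is a common target of it, fell by 0.67 (adjusted p = 0.00254). Chac1 was lower in series 2 in 8 of 8 pairs, with medians of 7.84 FPKM in series 2 and 13.98 FPKM in series 3. Atf4, the list's master regulator, was not called (0.13, adjusted p = 0.605).

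Single genes of several other lists rose. Gclc, the catalytic subunit of the first step of glutathione synthesis, had medians of 22.5 FPKM in series 2 and 13.7 FPKM in series 3 (0.56 ± 0.10, adjusted p = 0.0103). Of 30 NRF2 and glutathione genes 5 rose, 16.7% against 6.46% of all genes, with a list median of 0.001. Rises numbered 2 without the ICI, Tamo_E2, NC_E2 or NC pair and 3 without the ICI_E2 pair. Per1 and Cry2, repressors of the circadian clock, rose by 0.50 ± 0.06 (adjusted p = 0.00216) and 0.45 ± 0.06 (adjusted p = 0.00429), within a list where 4 of 15 rose and 1 fell (2 rises and no fall called by edgeR without the ICI, Tamo_E2, NC_E2 or NC pair). Mxd1 and Mnt, which compete with MYC for its partner MAX, rose by 0.81 ± 0.07 (adjusted p = 0.000405) and 0.48 ± 0.08 (adjusted p = 0.00577). Sqstm1, an autophagy receptor, had medians of 332 FPKM in series 2 and 212 FPKM in series 3 (0.50 ± 0.08, adjusted p = 0.00523). Bcl2l11, which encodes the cell death protein BIM, rose by 0.76 ± 0.13 (adjusted p = 0.00746). It was the single rise among 26 apoptosis genes, a share below the 6.46% of all genes, and 5 fell. By edgeR 0 were called lower without the ICI, NC_E2 or NC pair and 1 without the SH, ICI_E2 or Tamo_E2 pair. Other lists had called shares above the 11.8% of all genes. Of 21 glycolysis genes 5 fell (23.8%) and 0 rose by edgeR or limma, against 2 by DESeq2. Of 27 hypoxia genes 5 fell and 1 rose (22.2%). Of 22 nutrient sensing genes 6 rose and 2 fell (36.4%), and of 27 p53 targets 6 rose and 3 fell (33.3%). Every leave-out kept 1 glycolysis fall, 2 hypoxia falls, 3 nutrient sensing rises and 2 falls, and 3 p53 rises and 1 fall.

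**Figure D3:**
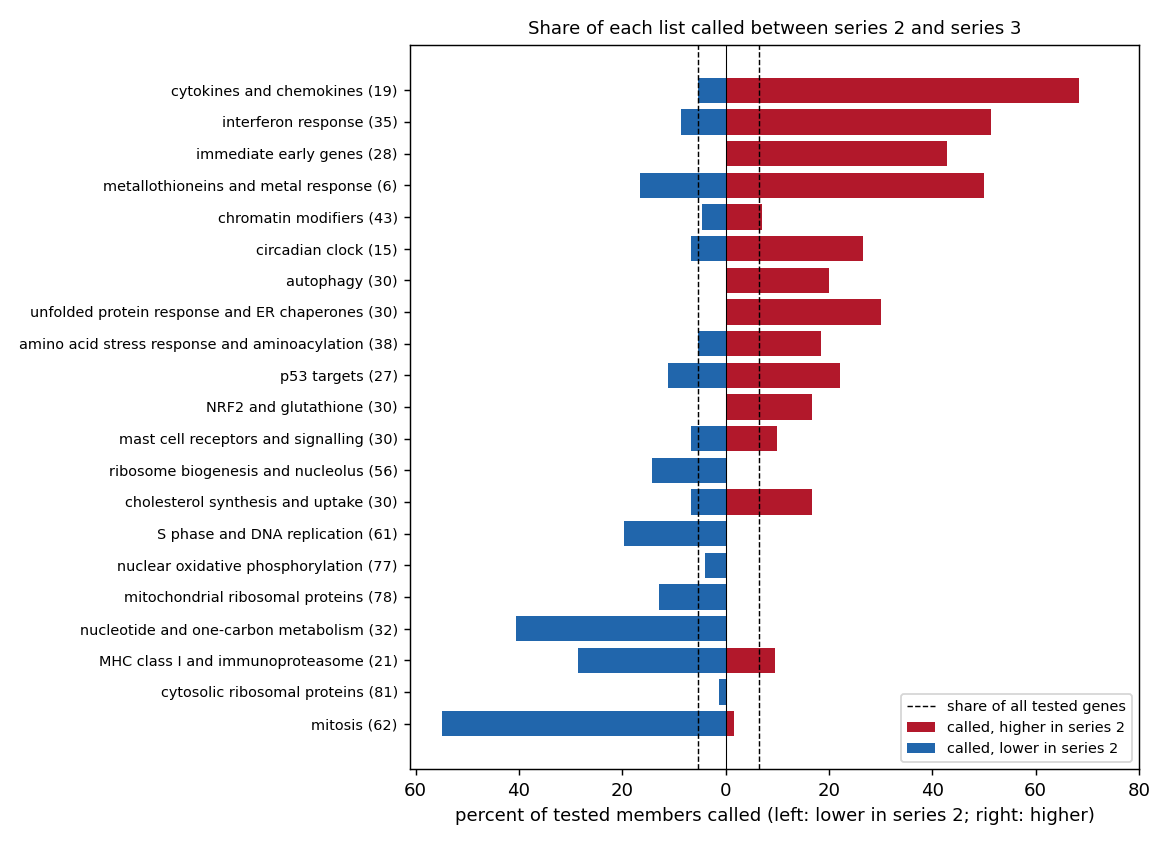
Bars show the percentage of the tested members of each gene list, whose number is in brackets, that were called lower (left, blue) or higher (right, red) in series 2, and dashed lines show the same shares over all tested genes, 5.36% and 6.46%. Cytokines, interferon response, metal response and immediate early genes extend to the right, and mitosis, nucleotide metabolism and MHC class I genes to the left.

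Genes of cell division were lower in series 2. Of 62 tested mitosis genes 34 fell (against 5.36% of all genes) and 1 rose, with a median of -0.26, and 61 of 62 were below 0. The count depended on which pair was left out: 11 fell without the ICI, the NC_E2 or the NC pair, 16 without the ICI_E2 or the Tamo_E2 pair, 31 without the SH pair, 33 without the Tamo pair and 40 without the SH_E2 pair. Without both tamoxifen groups 10 fell, while the median stayed between -0.25 and -0.29 in those fits and in the other leave-outs of 1 pair. The list's median was below 0 in all 8 pairs, nearest to 0 in SH (-0.07) and SH_E2 (-0.12) and farthest in ICI_E2 (-0.36).

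Nusap1, which bundles spindle microtubules, ranged from 5.93 to 9.55 FPKM in series 2 (median 8.27) and from 8.35 to 11.5 FPKM in series 3 (median 10.7). The ranges overlapped, but all 8 pairs were lower in series 2 (-0.41 ± 0.06, adjusted p = 0.00415). Sgo2a, which protects the cohesion of centromeres, had medians of 4.57 FPKM in series 2 and 6.12 FPKM in series 3 (-0.43 ± 0.07, adjusted p = 0.00691). Ube2c, the ubiquitin-conjugating enzyme of the anaphase-promoting complex, ranged from 26.5 to 42.2 FPKM in series 2 (median 33.8) and from 38.6 to 53.2 FPKM in series 3 (median 45.8). Its fall of 0.48 (adjusted p = 0.0239) lost its call without the ICI, Tamo_E2, NC_E2 or NC pair (adjusted p up to 0.0676). The exception was Ncapd2, a condensin subunit, with 172 to 226 FPKM in series 2 (median 212) and 127 to 182 FPKM in series 3 (median 160); it rose in 8 of 8 pairs (0.41 ± 0.04, adjusted p = 0.00105). Mki67, a marker of cycling cells, had medians of 13.9 FPKM in series 2 and 16.2 FPKM in series 3 and was not called (-0.22, adjusted p = 0.187). The promoter of Ube2c is shown for the cell cycle genes homology region TTTGAA, through which the DREAM complex acts on many mitotic genes. That motif is in 18.1% of all windows, in 12% of those of tested genes (987 of 8238) and in 37 of 52 windows of the mitosis list. Of the 30 called members with a window, 18 held it, Ncapd2 among them, which is a smaller share than in the whole list.
Ube2c, chr2:164769679-164769978, plus strand: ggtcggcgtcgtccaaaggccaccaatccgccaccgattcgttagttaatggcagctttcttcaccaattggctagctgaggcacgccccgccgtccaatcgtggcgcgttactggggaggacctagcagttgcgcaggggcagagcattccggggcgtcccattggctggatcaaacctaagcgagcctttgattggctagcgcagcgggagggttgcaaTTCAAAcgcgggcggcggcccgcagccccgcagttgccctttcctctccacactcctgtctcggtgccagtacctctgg

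Replication and the supply of its building blocks moved the same way. Of 61 S phase genes 12 fell, 19.7% against 5.36% of all genes, with a median of -0.12. In edgeR 0 were higher even at an unadjusted p under 0.05, and 0 were called higher by limma or DESeq2. Falls numbered 5 without the ICI or the NC pair and 6 without the Tamo_E2 or the NC_E2 pair. Gins3, a subunit of the replicative helicase, ranged from 3.69 to 6.08 FPKM in series 2 (median 5.15) and from 6.57 to 7.74 FPKM in series 3 (median 6.90), without overlap (-0.48 ± 0.10, adjusted p = 0.0178). Hells, a chromatin remodeller needed for DNA methylation, fell by 0.37 (adjusted p = 0.00388). In nucleotide and one-carbon metabolism 13 of 32 fell, with a median of -0.17, and 1 was higher at an unadjusted p under 0.05 with 0 called by edgeR, limma or DESeq2. The falls numbered 8 without the Tamo_E2 or the NC_E2 pair and 7 without the NC pair. Paics, an enzyme of purine synthesis, ranged from 97.6 to 123 FPKM in series 2 (median 107) and from 127 to 153 FPKM in series 3 (median 141). Odc1, the first enzyme of polyamine synthesis, ranged from 31.8 to 42.4 FPKM in series 2 (median 38.5) and from 44.1 to 55.2 FPKM in series 3 (median 46.9). Neither of these genes overlapped between the series, and their log2 fold changes were -0.38 ± 0.04 for Paics (adjusted p = 0.00118) and -0.35 ± 0.05 for Odc1 (adjusted p = 0.00392).

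Targets of the TGF-beta and BMP pathways were split. Of 9 tested, 3 rose and 2 fell around a median of -0.01, which is 55.6% called against 11.8% of all genes. Id1, a BMP target that blocks helix-loop-helix factors, ranged from 40.4 to 84.5 FPKM in series 2 (median 72.8) and from 46.8 to 148 FPKM in series 3 (median 140). Its ranges overlapped through the hairpin libraries, which were low in both series, and all 8 pairs were lower in series 2 (-0.73 ± 0.11, adjusted p = 0.0056). Skil and Tgif1, which repress SMAD-driven transcription, rose by 0.77 ± 0.14 (adjusted p = 0.0114) and 0.53 ± 0.07 (adjusted p = 0.00388). Acvrl1, the BMP9 receptor ALK1, was among the largest falls (-1.59 ± 0.31, adjusted p = 0.0142) but depended on the group, as described with the hairpin groups. Other large falls were Ppih, a splicing-associated prolyl isomerase (-1.17 ± 0.14, adjusted p = 0.00175; medians 5.75 FPKM in series 2 and 11.2 FPKM in series 3), and Ccnb1ip1, a ubiquitin ligase known for its part in meiotic crossing-over (-0.80 ± 0.09, adjusted p = 0.00163; medians 14.8 FPKM in series 2 and 25.1 FPKM in series 3). H2ac18, a histone gene with near-identical copies, had the most negative fitted value, but its median in series 2 was the placeholder of 0.0001 FPKM and that in series 3 was 0.194 FPKM, so no fold is given.

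**Figure D4:**
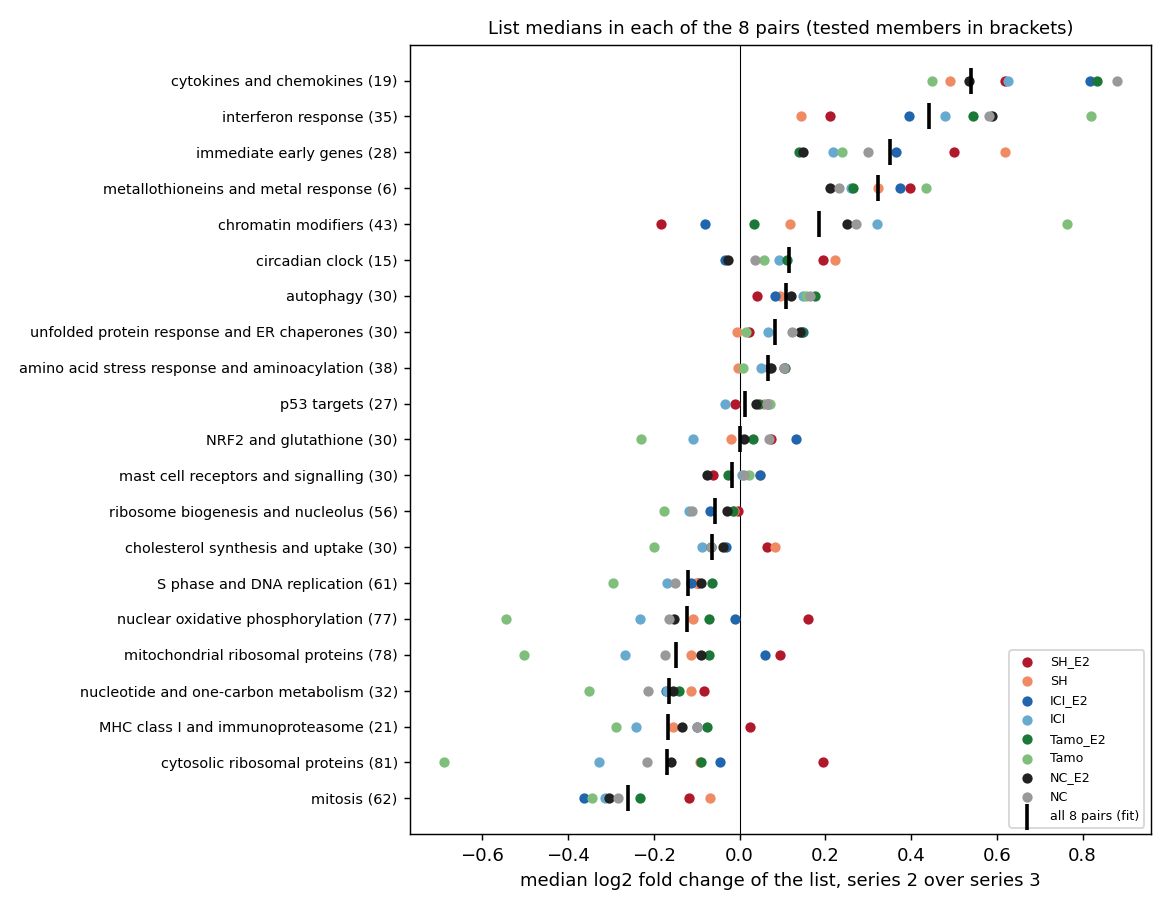
For 21 gene lists, with the number of tested members in brackets, coloured points give the list's median log2 CPM difference, series 2 minus series 3, in each of the 8 pairs, and black bars give the median fitted over all pairs. Interferon, cytokine, immediate early, metal response and autophagy lists lie right of 0 in 8 of 8 pairs, mitosis, S phase, nucleotide and ribosome biogenesis lists left of 0 in 8 of 8, and the Tamo and SH_E2 pairs lie at opposite ends for ribosomal and oxidative phosphorylation genes.

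Ribosomal and respiratory genes were shifted by little and unevenly. Of 81 cytosolic ribosomal protein genes 80 were below 0, with a median of -0.17, yet 1 was called (1.23% against 11.8% of all genes). The pair medians ran from -0.69 in Tamo to 0.19 in SH_E2, and 19 genes fell once the SH_E2 pair was left out. In the mitochondrial ribosome list 10 of 78 fell (median -0.15), with 6 falls without the ICI_E2 or Tamo_E2 pair, 2 without the ICI or NC_E2 pair and 1 without the NC pair. In the nuclear oxidative phosphorylation list 3 of 77 fell (median -0.12), which is 3.9%, below the 5.36% of all genes. Falls numbered 15 without the SH_E2 pair, 1 without the SH pair and 0 by edgeR without the ICI, NC_E2 or NC pair. Over the 4 groups with β-estradiol alone the medians of these lists were -0.005, 0.002 and -0.004. Mrpl41, of the large mitochondrial subunit, was the member whose call every leave-out kept, with 14.7 to 20.7 FPKM in series 2 (median 16.4) and 21.8 to 26.3 FPKM in series 3 (median 23.02), without overlap (-0.51 ± 0.07, adjusted p = 0.00467).

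Gene length moved with these differences. Across 12068 tested genes with a length estimate, the log2 fold change had a Spearman correlation of 0.278 with relative length, a description over genes that are not independent. The 4023 longest genes had a median of 0.07 with 380 rises and 159 falls, and the shortest had a median of -0.08 with 99 rises and 185 falls of 4023. Within pairs the correlation ran from 0.392 in Tamo to -0.265 in SH_E2, with ICI_E2 at -0.075. The ribosomal protein list holds 58 short genes and 2 long ones, and the chromatin modifier list, whose median was 0.19, holds 35 long genes of 43. In SH_E2 and ICI_E2, where long genes were not higher in series 2, the medians were 0.21 and 0.40 for the interferon list and -0.12 and -0.36 for mitosis. After a correction for length, added after the data were seen, 19 interferon genes rose and 43 mitosis genes fell, while the medians became -0.12 for cytosolic ribosomal genes and 0.08 for chromatin modifiers. The part of length was not tested, neither in single genes nor in the lists.

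Of 30 mast cell receptor and signalling genes 3 rose and 2 fell, which is 16.7% called against 11.8% of all genes, with a median of -0.02. Without the ICI or the NC pair 1 was called. Kit, the receptor for stem cell factor on which mast cells depend, ranged from 109 to 174 FPKM in series 2 (median 130) and from 98.3 to 117 FPKM in series 3 (median 102), and rose by 0.33 ± 0.07 (adjusted p = 0.0203); the call was lost without the ICI, NC_E2 or NC pair (adjusted p up to 0.0609). Inpp5d, the lipid phosphatase SHIP1 that dampens signals from Kit and the IgE receptor, rose by 0.30 ± 0.06 (adjusted p = 0.0135). Cpa3, the granule carboxypeptidase, had medians of 197 FPKM in series 2 and 196 FPKM in series 3 and was not called (-0.13, adjusted p = 0.242). Hdc, which makes histamine, was not called either (0.04, adjusted p = 0.726; medians 28.4 FPKM in series 2 and 28.7 FPKM in series 3), nor was the transcription factor Gata2 (0.25, adjusted p = 0.133; medians 178 FPKM in series 2 and 145 FPKM in series 3). Nlrp3, the sensor of an inflammasome, ranged from 0.543 to 7.78 FPKM in series 2 (median 2.02) and from 0.219 to 3.86 FPKM in series 3 (median 1.36); its rise of 0.91 ± 0.25 (adjusted p = 0.0423) was lost without the SH_E2, ICI_E2, ICI, Tamo_E2 or NC_E2 pair (adjusted p up to 0.102).

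Whether the series difference depended on the group was tested with interaction terms. With the hairpin 10 genes were called (0.0821% of 12183), 7 with a more positive and 3 with a more negative difference in hairpin pairs; 9 were protein-coding and the other was Gm25894, a small nucleolar RNA. Klf2, a transcription factor of quiescent immune cells, had 0.790 FPKM in SH_E2 and 1.03 FPKM in SH of series 2, against 0.196 and 0.288 FPKM in series 3. In the 6 other groups it ranged from 6.43 to 9.66 FPKM in series 2 and from 12.7 to 22.3 FPKM in series 3. The direction was thus opposite: the pair differences were 1.77 and 1.95 log2 CPM with the hairpin and -1.26 to -0.59 without it (interaction 2.999 ± 0.23, adjusted p = 0.00331). That call stood whichever pair was left out.

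Egr1, an immediate early gene, was higher in series 2 in every pair, but by more with the hairpin. It had 11.4 FPKM in SH_E2 and 11.3 FPKM in SH of series 2, against 3.52 and 2.69 FPKM in series 3, and elsewhere 59.6 to 74.1 FPKM in series 2 and 31.4 to 44.0 FPKM in series 3. The differences were 1.72 and 2.06 log2 CPM with the hairpin and 0.66 to 0.93 without it (interaction 1.16 ± 0.12, adjusted p = 0.0165). Gzmb, the protease granzyme B, had 9.65 FPKM in SH_E2 and 7.16 FPKM in SH of series 2, against 4.87 and 3.71 FPKM in series 3, while the other groups had 63.8 to 78.0 FPKM in series 2 and 65.1 to 89.5 FPKM in series 3 (interaction 1.13 ± 0.12, adjusted p = 0.0197). Acvrl1 had 1.02 FPKM in SH_E2 and 1.17 FPKM in SH of series 2, against 1.31 and 0.945 FPKM in series 3. In the other 6 groups it had 1.49 to 1.92 FPKM in series 2 and 5.47 to 8.92 FPKM in series 3, so its fall lay in the groups without a hairpin (interaction 2.07 ± 0.26, adjusted p = 0.031). Grb2, an adaptor between receptor kinases and RAS, had 43.6 FPKM in SH_E2 and 44.5 FPKM in SH of series 2, against 96.0 and 93.1 FPKM in series 3 (interaction -1.01 ± 0.11, adjusted p = 0.0197). The other 6 groups had 33.3 to 80.6 FPKM in series 2 and 33.6 to 78.7 FPKM in series 3, with Tamo_E2 the lowest in both. Plau, the urokinase protease, was higher in series 2 in both hairpin pairs and lower in the 6 others (interaction 0.90 ± 0.10, adjusted p = 0.0282). Leaving out the ICI, Tamo_E2, NC_E2 or NC pair left 2 genes called. The call of Egr1 was lost without any of these 4 or the SH pair (adjusted p up to 0.0671), and those of Gzmb, Grb2 and Plau without any of these 4, the SH or the SH_E2 pair (adjusted p up to 0.137, 0.137 and 0.164).

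**Figure D5:**
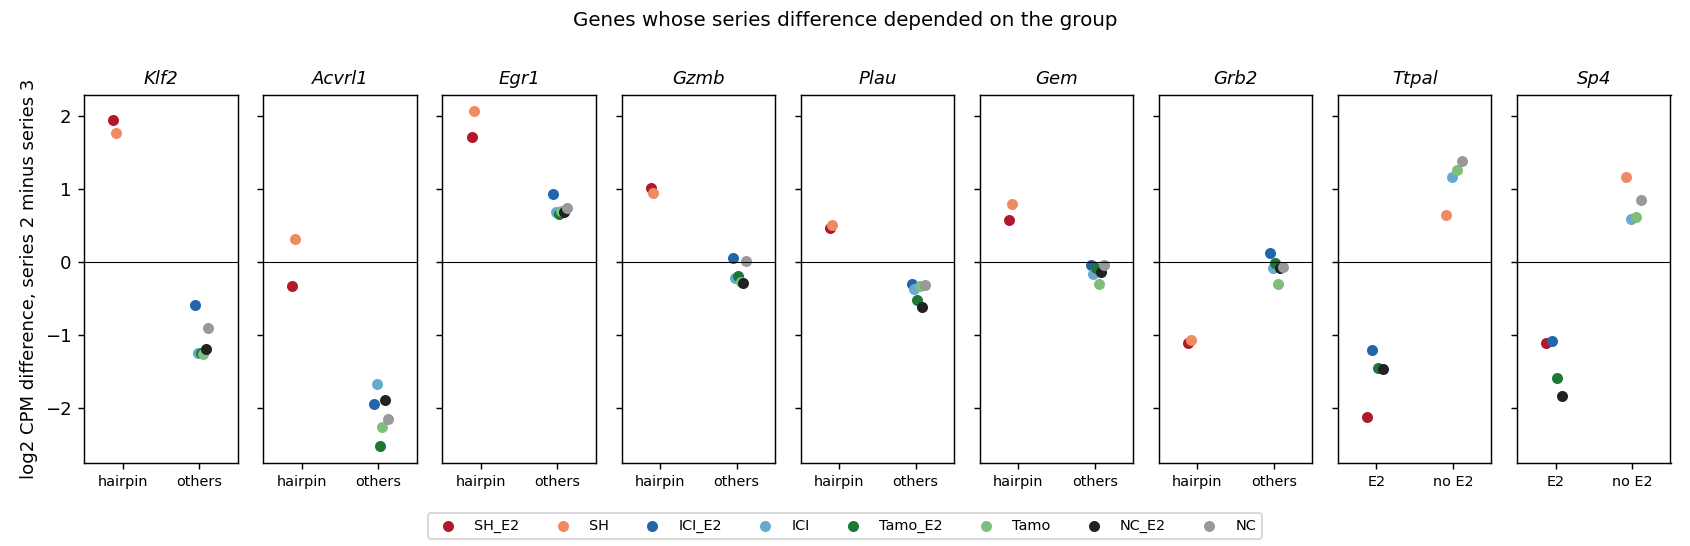
Points give the difference in log2 CPM, series 2 minus series 3, of each of the 8 pairs for 9 genes, with the hairpin pairs left of the others for the first 7 genes and the pairs with β-estradiol (E2) left of those without it for Ttpal and Sp4. The hairpin pairs of Klf2 and Plau lie above 0 and the others below, and the pairs of Ttpal and Sp4 lie on opposite sides of 0 with and without E2.

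With β-estradiol 2 genes were called by edgeR (0.0164%), against 0 by limma and 47 by DESeq2. Ttpal, a lipid transfer protein of the alpha-tocopherol transfer protein family, had differences of -2.12 to -1.20 log2 CPM in the pairs with β-estradiol and of 0.64 to 1.38 in those without it (interaction -2.68 ± 0.24, adjusted p = 0.0159). Its levels with β-estradiol were 0.877 to 2.37 FPKM in series 2 and 2.01 to 10.5 FPKM in series 3, and without it 1.46 to 3.22 FPKM in series 2 and 0.868 to 1.22 FPKM in series 3. Sp4, a zinc finger factor that binds GC-rich promoters, behaved likewise (interaction -2.21 ± 0.23, adjusted p = 0.0304). The call of Sp4 was lost whichever pair was omitted (adjusted p up to 0.207), and that of Ttpal without the ICI, Tamo_E2, Tamo, NC_E2 or NC pair (adjusted p up to 0.116). With the inhibitors 0 genes were called by edgeR (394 at an unadjusted p under 0.05), 0 by limma and 4 by DESeq2.

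Series 1 was set beside the other series only for position, in a fit to all 24 libraries in which the comparisons share libraries. It differed from series 2 in 37.8% and from series 3 in 42.6% of tested genes. The medians of series 1 over series 2 and over series 3 were -0.92 and -0.15 for cytokines and -0.67 and -0.37 for the interferon list. For mitosis they were -0.74 and -1.01, so that series 2 lay between series 1 and series 3.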

How the data were processed

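RNA-seq of 24 P815 libraries was used, 16 of them in the comparison. The submitters' processing notes name cutadapt, HISAT2 and the GRCm38 build; the quantifier, annotation, strand and all versions stay unnamed, being not given in the sources used here. A single table was deposited by the authors with FPKM values for 55385 genes and, per the file headers, a count per gene and library (0 columns of other samples). The deposited counts are whole but pile up at 4 (16.2% of values from 1 to 40), 8 (9.11%) and 12 (5.13%), so they were taken as estimated counts made by the authors.

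The 12183 genes tested reached 1 FPKM in 3 or more of the 24 libraries. Counts were scaled by TMM and fitted by quasi-likelihood in edgeR 4.0.16 with group and series as factors, two-sided, with Benjamini-Hochberg adjustment over all genes; a gene was called under 0.05. Interaction terms were added for β-estradiol, hairpin and inhibitor. Pair differences are log2 CPM with a prior count of 2. Relative gene length is the ratio of count to FPKM. The code was tested on simulated data with 200 changed genes. Alternatives used limma 3.58.1, DESeq2 1.42.0, other scalings, filters and subsets.

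Members and gene lists were chosen with earlier results of these data known. Named protein-coding genes are the 10 largest and 10 lowest-p calls in each direction with the same sign in at least 7 of 8 pairs, up to 4 called members per list by size, the 5 lowest p of each interaction, and a short set of always-named genes; others are marked in the text. Of the list symbols, 7 of 1712 were not matched.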

Additional observations from a re-analysis of the deposited data

Results flagged for a closer look

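In 17 of 189 named genes and 1 of 41 list medians, 1 of the 8 pairs lay far from the other 7; chance does so in about 1 of 20 groups. The Tamo pair was the distant one for Nop10 (-1.17), Gins3 (-1.12), Cycs (-0.87), Wdr12 (-0.71), Cpa3 (-0.62), Acsl5 (-0.52), Eed (-0.43) and St13 (-0.35), which were lower in series 2 there than in any other pair, and for Runx2 (0.97) and Smarca2 (0.98), which were higher, all as log2 CPM differences of series 2 minus series 3. The median of the S phase list was also lowest in the Tamo pair (-0.294). The SH_E2 pair was distant for Ly9 (-0.82), Ulk1 (-0.21) and Rbm5 (-0.23), Tamo_E2 for Endod1 (-0.68), NC_E2 for Steap3 (-0.38), ICI_E2 for Sgo2a (-0.84) and ICI for Hmgcs1 (-0.49).

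The series difference itself differed with the hairpin for Klf2 (log2 interaction 2.999), Egr1 (1.16), Gzmb (1.13), Grb2 (-1.01) and Plau (0.90), and with β-estradiol for Ttpal (-2.68) and Sp4 (-2.21), by the edgeR interaction test.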

How the results depend on the processing

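No result was called in the opposite direction under an alternative. Of the 1440 calls at least 1438 kept their sign in each: 1438 with edgeR's own filter, 1439 without the NC_E2 pair and 1439 in the inhibitor groups alone. The number of genes called, 1440, became 1453 with DESeq2's size factors, 812 with no filter on low values, 1141 with edgeR's own filter, 2353 with the DESeq2 test, 1476 and 1454 with limma, 1448 with counts divided by 4, 2363 with all 24 libraries, 1850 without hairpin groups and 495 without tamoxifen groups. Length correction gave 1821, with 49.3% higher in series 2 against 54.7%. Leaving out 1 pair gave 501 to 2016. With 4 pairs, the groups with E2 gave 9, those without E2 1, the transfected groups 5 and the inhibitor groups 30. No replicate block (no group factor) gave 887 calls, 781 of them shared. The correlation of pair differences between groups ran from -0.083 to 0.327 and was over 0.1 in 16 of 28 comparisons. Whether the numbers pair the libraries was not tested, and the labels do not say what the numbers mark.

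List medians moved by more than the spread of pairs as follows. Without 1 pair, p53 targets (0.013) had 0.003 to 0.083 and TGF-beta targets (-0.01) had -0.11 to 0.216. With E2 groups alone fatty acid synthesis had -0.062, histones -0.062, nuclear long noncoding RNAs 0.080 and TGF-beta targets 0.161. Without E2, NRF2 genes had -0.132, granule genes 0.091, p53 targets 0.098, nutrient sensing 0.217 and TGF-beta targets 0.145. Transfected groups gave 0.032 for cytokine receptors, 0.075 for p53 targets and 0.291 for TGF-beta targets, and inhibitor groups 0.149 for immediate early genes, -0.116 for the hypoxia response and -0.253 for TGF-beta targets. Without tamoxifen groups fatty acid synthesis had -0.064, cytokine receptors 0.070 and p53 targets 0.086, and without hairpin groups immediate early genes had 0.156. Length correction gave 0.047 for NF-kB genes, 0.050 for autophagy and -0.030 for splicing.

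Interactions called 47 (β-estradiol), 168 (hairpin) and 4 (inhibitor) genes with DESeq2, and 0, 10 and 0 with limma; without 1 pair they called 0 to 1, 2 to 13 and 0 to 1. The fits without tamoxifen groups, without hairpin groups and with length correction were chosen after seeing the data. Causes were not tested. Low genes are limited by depth.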
